A study of Mus musculus with 2 samples.

Results

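The cells described here are the smallest of the clusters of amacrine cells (AC) in single-cell RNA sequencing of mouse retina. AC are inhibitory interneurons of the inner retina, and 1621 cells carried this name in the deposited annotation, in the 3 clusters numbered 6, 14 and 15. Cluster 6 (771 AC) was set aside, as was cluster 14 (437 AC), the larger of the others, which left cluster 15 with 413 AC of 30943 cells in all. Cluster 15 held no cell of another name. Retinas were taken at 30 days of age (P30) from 1 mouse with Chx10-Cre alone, called Ptbp1-Ctrl, and from 1 mouse with Chx10-Cre and Ptbp1lox/lox, called Ptbp1-KO, and each gave 1 library. Both mice carried Chx10-Cre, a transgene that produces a Cre-GFP fusion in retinal progenitors, and in Ptbp1-KO the cells descending from these progenitors lose the promoter and first exon of Ptbp1. The protein made from Ptbp1 binds pre-mRNA and keeps exons typical of neurons out of it. Cluster 15 held 160 cells with 434183 unique molecular identifiers (UMIs) in Ptbp1-Ctrl and 253 cells with 967617 UMIs in Ptbp1-KO.

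Cells of 1 mouse are not replicates, so the genotypes were compared with no test. Every difference below compares these 2 libraries, and genotype, animal, dissociation and library cannot be told apart. Levels are CPM, in which the UMIs of a gene, summed over the cells of a cluster in a library, are scaled to a total of 1000000. Differences between levels are log2 ratios. Intervals are exact, at 95%, and cover counting error only. The median depth of cluster 15 was 2242 UMIs per cell in Ptbp1-Ctrl and 3374 in Ptbp1-KO, and the median mitochondrial share was 2.71% and 2.95%. The 2 libraries shared 63 barcode sequences, which 2 cells of cluster 15 carried. The methods of the study describe female mice, whereas the Y-linked genes Ddx3y, Eif2s3y, Kdm5d and Uty together had 229 and 580 UMIs in the cluster and Xist had none in either library. Ptbp1 itself, the check of the labels, had 14 UMIs in cluster 15 of Ptbp1-Ctrl (32.2 CPM) and 1 in Ptbp1-KO (1.03 CPM). The log2 ratio was −4.96 (−10.37 to −2.25). Its paralog Ptbp2 stood at 177 and 191 CPM (log2 0.11, −0.28 to 0.51).

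AC are commonly divided by transmitter. GABAergic AC make GABA with the glutamate decarboxylases Gad1 and Gad2, and glycinergic AC take up glycine through Slc6a9, while Slc32a1 loads either transmitter into vesicles. The AII is a narrow-field glycinergic AC that receives the signal of rod bipolar cells, passes it to ON cone bipolar cells through gap junctions built with the connexin Gjd2, and inhibits the OFF pathway with glycine.

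Cluster 15 had the genes of glycinergic AC and almost none of the genes of GABAergic AC. Slc6a9 reached 864 CPM (778 to 956) in Ptbp1-Ctrl and 918 CPM (858 to 980) in Ptbp1-KO, near its level in cluster 14 (1028 and 1289 CPM) and above that in cluster 6 (151 and 199.7 CPM). Slc6a5, the glycine transporter of glycinergic terminals, was at 134 and 126 CPM, against 25.4 and 16.5 CPM in cluster 14 and 17.6 and 20.3 CPM in cluster 6. Among the 3 AC clusters, Slc6a5 was thus highest in cluster 15 in either library. Slc32a1 was at 203 and 217 CPM, close to the 221 and 249 CPM of cluster 14.

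The GABA synthesis genes were near 0. Gad1 had 1 UMI in each library (2.30 and 1.03 CPM, against 479 and 536 CPM in cluster 6), and Gad2 had 2 and 5 UMIs (4.61 and 5.17 CPM, against 250.0 and 279 CPM). The cholinergic gene Chat had no UMI in either library of the cluster, and Slc17a8, the vesicular glutamate transporter VGluT3 of another AC type, had 1 and 3 UMIs. Of the AC genes used to check the name of the cluster, Slc6a9, Slc32a1 and Pax6 were thus present, whereas Gad1, Gad2 and Chat were at or near 0. Pax6, a homeobox gene of AC, stood at 405 and 428 CPM, lower than in cluster 14 (824 and 918 CPM). Tfap2b, an AP-2 transcription factor, was at 677 and 799 CPM and exceeded its level in clusters 14 (16.4 and 14.5 CPM) and 6 (327 and 472 CPM), while its relative Tfap2c had 0 and 1 UMI here and 201 and 252 CPM in cluster 14.

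Cells were also compared after thinning each to 1000 UMIs, which left out 6 and 4 shallower cells of cluster 15. A UMI of Slc6a9 was then found in 84 of 154 cells of Ptbp1-Ctrl (54.5%, 46.3 to 62.6) and in 156 of 249 cells of Ptbp1-KO (62.7%, 56.3 to 68.7). The shares without thinning were 81.3% and 87.0%. Rods, which should lack Slc6a9 and whose median depth was 1088 and 1288 UMIs, had a thinned share of 3.64% and 4.84%, so the share in cluster 15 was far above the background of free RNA. Taking Slc6a9 or Slc6a5 as glycinergic and Gad1 or Gad2 as GABAergic genes, 92 of the 154 thinned Ptbp1-Ctrl cells had a UMI of the first kind alone and none had one of the second kind. Taking 3 cells as the limit that a count of 0 allows, up to 1.95% of cells could have such a UMI at this depth, which does not bound the cells that express these genes. In Ptbp1-KO, 163 of 249 cells had a glycinergic UMI alone, 2 had both kinds and none had a GABAergic UMI alone. In cluster 6, by contrast, 83 of 251 Ptbp1-Ctrl cells and 133 of 429 Ptbp1-KO cells had a GABAergic UMI alone.

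The cluster was AII-like by the markers used here. Of 7 AII markers, 6 were at least 2-fold higher than in the other AC in both libraries, set beside 3.11% of the 10796 genes measured in AC that were higher to this degree and 7.46% that were lower. Clusters are built from these same genes, so this and all comparisons with the other clusters are descriptions. Gjd2 reached 608 and 685 CPM, whereas clusters 14 (32.8 and 22.7 CPM) and 6 (41.1 and 34.9 CPM) did not exceed the 41.3 CPM of Ptbp1-Ctrl rods. Dab1, an adaptor of reelin signalling and a classic label of AII cells, was at 3835 and 3702 CPM, above its 1953 and 1917 CPM in cluster 14. The transcription factors Prox1 (841 and 846 CPM, against 477 and 553 CPM in cluster 14) and Nfia (1589 and 1335 CPM) exceeded both other clusters as well. So did the carbonic anhydrase Car2 (1384 and 1336 CPM) and the AMPA receptor subunit Gria3 (1191 and 1159 CPM, against 606 and 565 CPM in cluster 14). Against cluster 14 alone, Gjd2, Nfia and Car2 were at least 2-fold higher in both libraries, whereas Dab1, Prox1 and Gria3 were not.

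The exception was Calb2, the calcium-binding protein calretinin, at 143 CPM in both libraries, below the 228 and 302 CPM of cluster 14. In the plot of transmitter genes and AII markers, cluster 15 stands at the top for the 6 higher markers and next to cluster 14 for Slc6a9. The markers were spread over the cells. After thinning, 140 of 154 Ptbp1-Ctrl cells (90.9%) and 223 of 249 Ptbp1-KO cells (89.6%) had UMIs of at least 3 of the 7 genes, against 31.8% and 35.5% of cluster 14 and 5.18% and 5.13% of cluster 6. Just 1 cell of cluster 15, in Ptbp1-KO, had none of them.

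**Figure D1:**
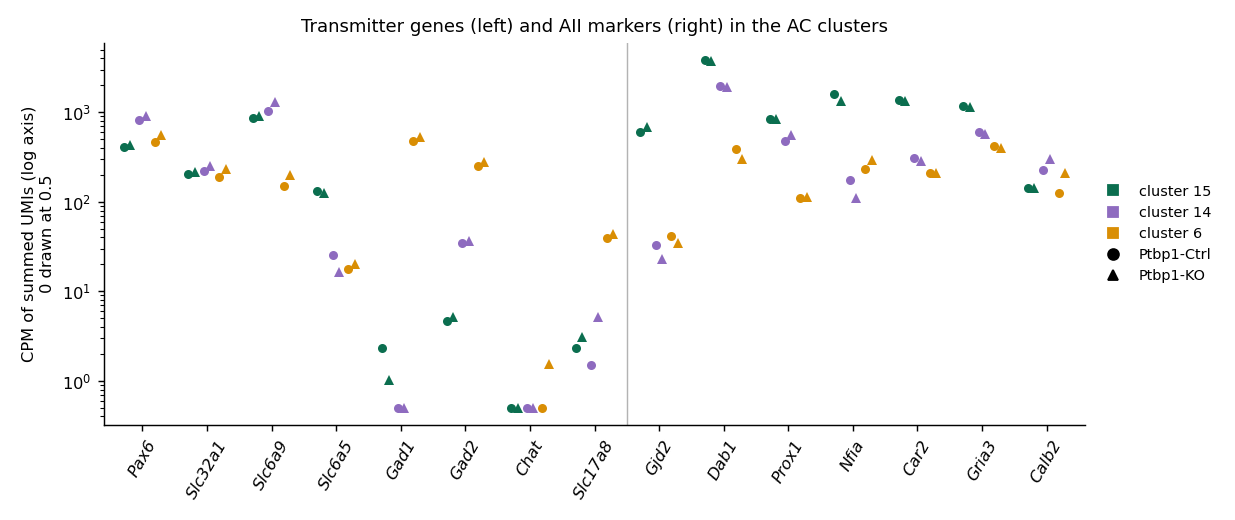
CPM of summed UMIs on a log axis for 8 transmitter and AC genes and 7 AII markers, in clusters 15 (green), 14 (purple) and 6 (orange) of Ptbp1-Ctrl (circles) and Ptbp1-KO (triangles), 1 library each, with levels of 0 drawn at 0.5. Cluster 15 has Slc6a9 at 864 and 918 CPM, Gad1 at 2.30 and 1.03 CPM and the highest Gjd2, at 608 and 685 CPM.

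Markers of other AC types were partly present. The genes Ebf1 (1 and 13 UMIs) and Ebf3 (1 and 2) of the SEG type and the neuropeptide gene Cartpt (2 and 6) were close to 0, and no gene of the neuropeptide list reached 20 UMIs. Cartpt reached 928 and 920.0 CPM in cluster 14 and 1595 and 2229 CPM in cluster 6. Of 3 genes listed for the A17, a GABAergic AC, the adhesion gene Sdk1 (1110 and 1150 CPM) and the calcium buffer Calb1 (325 and 387 CPM) were at least 2-fold higher than in the other AC in both libraries, whereas Prkca was lower than in either other cluster (168 and 313 CPM). Neurod2, listed for AC with neither GABA nor glycine, was higher to this degree as well, at 157 and 136 CPM, against 25.8 and 17.7 CPM in cluster 6. Neurod6, listed for the same type, had no UMI.

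Genes that set cluster 15 apart were ranked by the smaller of its log2 ratios over clusters 6 and 14 in the 2 libraries, among 3909 genes with at least 50 CPM in each library and 50 UMIs. The first was the long noncoding RNA Gm45459 at 465 CPM in both libraries, against 7.23 and 4.84 CPM in the other AC, which is at least 64.4-fold in either library. It was found in 53.1% of Ptbp1-Ctrl and 64.0% of Ptbp1-KO cells of the cluster, and in 1.35% and 1.87% of those of cluster 14. Gm45459 spans chr8:62646335-62855382 of mm10 on the minus strand. A second long noncoding RNA among the 12 leading genes, Gm45460 (57.6 and 56.8 CPM), lies 11.7 kb from it on the same strand. Tll1, a secreted metalloprotease of the tolloid family at 753 and 937 CPM, lies 1.16 Mb beyond it on that strand and was the most abundant of the 12.

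The other leading genes had varied roles. Slc6a12, a transporter of betaine and GABA, was at 117 and 98.2 CPM in the cluster and had 4 and 5 UMIs in all other AC. Sct, the gene of the peptide hormone secretin, was at 92.1 and 103 CPM, which is 23.4-fold or more above the other AC. The growth factor Fgf1 stood at 147 and 191 CPM (22.1-fold or more) and the stress-activated kinase Mapk12 at 166 and 165 CPM. Evc, a protein of the primary cilium (119.8 and 96.1 CPM), the ubiquitin ligase Rnf182 (129 and 129 CPM) and Syndig1, a synaptic partner of AMPA receptors (96.7 and 151 CPM), were each at least 16.4-fold above the other AC. Onecut1, a transcription factor better known from horizontal cells, was at 64.5 and 71.3 CPM and at least 17.2-fold higher. The noncoding RNA Gm49289 had 46 and 51 UMIs here and 3 and 0 in the other AC.

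**Figure D2:**
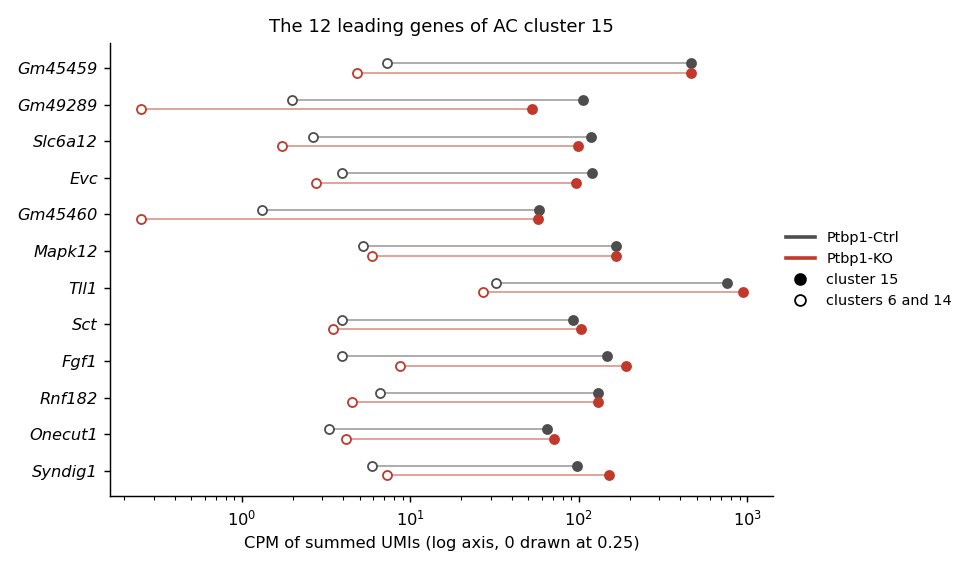
The 12 leading genes of AC cluster 15, with CPM on a log axis in cluster 15 (filled) and in clusters 6 and 14 together (open), for Ptbp1-Ctrl (grey) and Ptbp1-KO (red), and levels of 0 drawn at 0.25. In each gene and library the filled point lies to the right, from 52.7 CPM (Gm49289 in Ptbp1-KO) to 937 CPM (Tll1 in Ptbp1-KO).

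These genes were of low to moderate abundance. With a minimum of 200 CPM, the leading genes included Gjd2, the dopamine receptor Drd2 (251 and 250.1 CPM, against 8.54 and 17 CPM in the other AC), the proprotein convertase Pcsk6 (249 and 315 CPM), the potassium channel subunit Kcnq3 (426 and 368 CPM) and the calcium exchanger Slc24a2 (716 and 753 CPM). The growth factor gene Nrg1 was the most abundant of them at 7946 and 7460 CPM, against 667 and 751 CPM in the other AC. At the other end, the receptor phosphatase Ptprt had 0 and 7 UMIs in cluster 15 and 830 and 738 CPM in the other AC. The transcription factor Nhlh2 had 0 and 6 UMIs against 395 and 469 CPM.

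Synaptic and wiring genes were then counted by list, over genes with at least 50 UMIs in AC, of which 3.11% were at least 2-fold higher and 7.46% at least 2-fold lower in both libraries. Of 19 adhesion and wiring genes, 4 were at least 2-fold higher than in the other AC in both libraries and 11 were at least 2-fold lower. The higher ones were Cntn4 (2153 and 2174 CPM), Sdk1, Dscaml1 (891 and 773 CPM) and Cntn6 (348 and 328 CPM), all cell adhesion molecules of the immunoglobulin superfamily. Among those that were lower were the netrin receptor Unc5d (140.5 and 121 CPM, against 1449 and 1538 CPM in cluster 14) and the axon guidance receptor Robo1 (2.30 and 9.30 CPM, against 654 and 729 CPM in cluster 6). Of 11 potassium channel genes, Kcnma1, the large-conductance calcium-activated channel, was higher at 3478 and 3476 CPM, against 469 and 409 CPM in cluster 14, and 7 were lower.

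Receptor genes were counted against the same 3.11% higher and 7.46% lower. Of 11 glutamate receptor genes Gria3 was higher and 4 were lower, among them Gria1, Grin2a and Grin2b. The AMPA subunits Gria4 (1536 and 1506 CPM) and Gria2 (606 and 538 CPM) were within 2-fold of the other AC. Of 13 GABA and glycine receptor genes, Gabrg3 was higher (2128 and 1820 CPM) and 4 were lower, among them the glycine receptor subunit Glra2 (29.9 and 22.7 CPM, against 378 and 417 CPM in cluster 14). Of 7 calcium-binding genes Calb1 was higher and 2 were lower.

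Cluster 15 made up a larger share of the Ptbp1-KO library. Of the Ptbp1-Ctrl library it held 0.974% (0.83 to 1.14), and of the Ptbp1-KO library 1.74% (1.54 to 1.97), a ratio of 1.79 (1.46 to 2.19 by counting). Among cells other than rods, the shares were 2.51% (2.14 to 2.93) and 4.85% (4.28 to 5.46). Among AC alone they were 23.7% (20.5 to 27.1) and 26.8% (23.97 to 29.7), a ratio of 1.13 with intervals that overlap. The higher share of all cells thus did not come with a clearly different share of AC. Cluster 6 had the same direction (1.78% and 3.29% of all cells), whereas cluster 14 held 1.36% and 1.47% of all cells, with intervals that overlap, and 33.0% and 22.6% of AC, with intervals that do not.

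**Figure D3:**
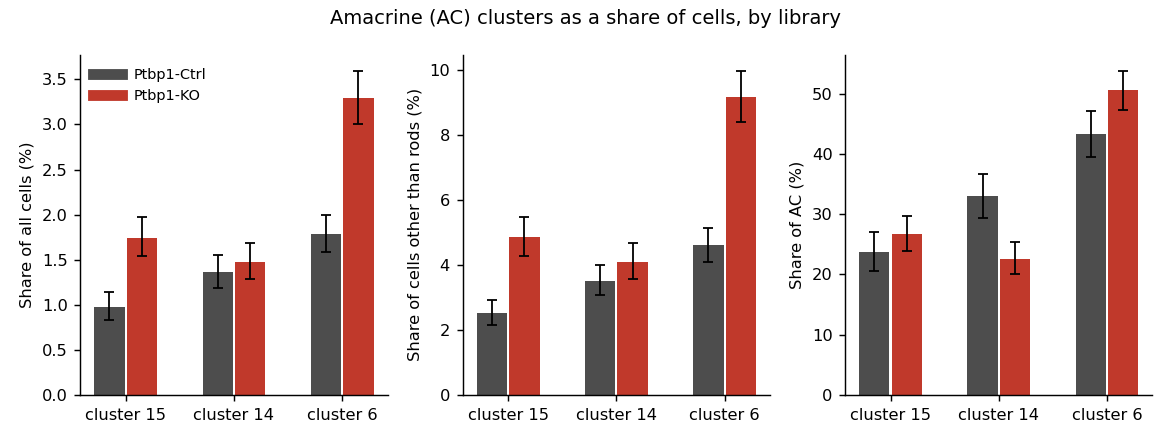
Cells of AC clusters 15, 14 and 6 as a percentage of all cells, of cells other than rods and of AC, in Ptbp1-Ctrl (grey) and Ptbp1-KO (red), with exact 95% binomial intervals for counting error and 1 library per genotype. Cluster 15 goes from 0.974% to 1.74% of all cells and from 23.7% to 26.8% of AC.

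The study keeps cells above 700 UMIs, so depth can set which cells enter a share. When the UMIs of Ptbp1-KO cells were thinned to the AC depth of Ptbp1-Ctrl and the minimum was applied again, the ratio of shares was 2.36. That factor (0.662) was applied to every cell, although the median depth of rods differed just 1.18-fold. It left out 5 of the 253 cells of the cluster and 25.8% of all Ptbp1-KO cells, so the rise from 1.79 came from the denominator. With the factor of all cells (0.829), 1 cell of the cluster and 12.2% of all cells were left out, and the ratio was 2.03.

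Levels in the 2 libraries were alike for most genes. Of 4267 genes with a mean of at least 50 CPM and at least 50 UMIs, 18 were at least 2-fold higher in Ptbp1-KO (0.422%) and 18 at least 2-fold lower (0.422%), around a median log2 ratio of −0.02. Slc15a2 and Mgat4c had the largest ratios among those higher in Ptbp1-KO, and Gm47283 the largest among those lower. The scatter of Ptbp1-KO against Ptbp1-Ctrl levels shows the 5 genes at either end.

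Mgat4c, a glycosyltransferase gene that branches N-glycans, had 39 UMIs in Ptbp1-Ctrl (89.8 CPM, 63.9 to 123) and 523 in Ptbp1-KO (541 CPM, 495 to 589), for a log2 ratio of 2.59 (2.12 to 3.10). It was found in 24 of 160 Ptbp1-Ctrl cells (15%, 9.85 to 21.5) and in 159 of 253 Ptbp1-KO cells (62.8%, 56.6 to 68.8). At 1000 UMIs per cell the shares were 7.14% and 38.6%, and in rods 0.44% and 0.939%. The difference was therefore spread over many cells and was present at equal depth. The other AC clusters had far more Mgat4c and differed less. In cluster 14 it was lower in Ptbp1-KO, at 1831 and 1396 CPM (log2 −0.39, −0.50 to −0.28). In cluster 6 it was higher, at 1076 and 1496 CPM (log2 0.48, 0.37 to 0.58). Mgat4c lies on chr10:101681487-102391469 of mm10, 21.8 Mb beyond Ptbp1 on the same chromosome.

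Slc15a2, a proton-coupled peptide transporter, had 5 UMIs in Ptbp1-Ctrl (11.5 CPM, 3.74 to 26.9) and 105 in Ptbp1-KO (109 CPM, 88.8 to 131), for a log2 ratio of 3.24 (1.97 to 4.89). The cells with a UMI went from 4 of 160 (2.50%) to 79 of 253 (31.2%), and at 1000 UMIs per cell from 1.95% to 10.0%. Slc15a2 was also higher in Ptbp1-KO in cluster 14 (29.8 and 99.2 CPM, log2 1.73), where Mgat4c was lower. The same direction was seen for Slc15a2 in cluster 6 (30.5 and 62.4 CPM, log2 1.03) and in bipolar cells (10.01 and 43.1 CPM). In rods its thinned share was 0.559% and 3.26%.

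**Figure D4:**
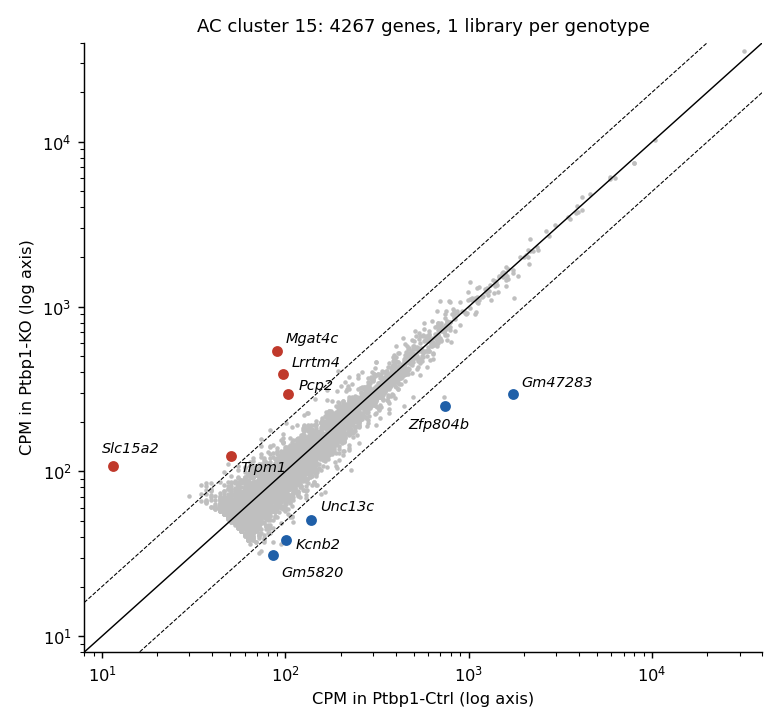
CPM in cluster 15 of Ptbp1-KO against Ptbp1-Ctrl on log axes, for 4267 genes with a mean of at least 50 CPM and 1 library per genotype, with lines at equal levels (solid) and at 2-fold (dashed). Named are the 5 genes with the largest (red) and smallest (blue) ratios, from Slc15a2 (11.5 and 109 CPM) to Gm47283 (1739 and 296 CPM).

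The other 3 genes at the upper end had over 50% of their UMIs in 5 cells of each library. Lrrtm4, a postsynaptic adhesion gene abundant in bipolar cells (3265 and 3727 CPM), went from 96.7 to 389 CPM (log2 2.01, 1.54 to 2.50), but 51.3% of its Ptbp1-KO UMIs lay in 5 of the 253 cells. Pcp2, a gene of ON bipolar cells, went from 104 to 296 CPM (log2 1.51) with 62.6% of its Ptbp1-KO UMIs in 5 cells. Trpm1, the transduction channel of ON bipolar cells, went from 50.7 to 124 CPM (log2 1.29) with 56.7% in 5 cells. Next, the 5 cells of each library with most UMIs of the gene were left out, a larger part of the Ptbp1-Ctrl cells. The log2 ratio was then 2.55 for Lrrtm4, 1.37 for Pcp2 and 1.73 for Trpm1. Without the 5% of cells of each library with the highest doublet scores it was 0.60, 0.77 and 0.63, all under 2-fold. In cluster 15, 13.1% of Ptbp1-Ctrl and 18.2% of Ptbp1-KO cells had such scores. For comparison, 5 cells held 6.42% of the Ptbp1-KO UMIs of Slc6a9 and 13.8% of those of Mgat4c.

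Bipolar cell genes moved with these ratios. A list of 10 bipolar genes, which includes Pcp2 and Trpm1, summed to 836 and 1186 CPM in cluster 15, which is 8.86% and 11.4% of its level in bipolar cells, and all 10 had a UMI in either library. The list took over 0.4% of the UMIs of 5 Ptbp1-Ctrl cells (3.13%) and of 18 Ptbp1-KO cells (7.11%), whose median depth was 5277 and 7065 UMIs, above the 2226 and 3281 UMIs of the rest. In these 18 cells Lrrtm4 was at 2464 CPM and Prkca, a kinase of rod bipolar cells, at 1585 CPM, whereas the other 235 Ptbp1-KO cells had 106 and 139.7 CPM. Without the cells rich in bipolar UMIs the log2 ratio was 0.78 for Lrrtm4, −1.15 for Pcp2 and 0.13 for Trpm1, although for Pcp2 and Trpm1 the cells were chosen by a list that holds them. The same exclusion left Mgat4c at 2.67 and Slc15a2 at 3.18.

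Genes of other cell types were checked in the same way. A list of 12 rod genes summed to 7925 and 8078 CPM, 13.7% and 15.5% of its level in rods, and its median log2 ratio was −0.16. A list of 7 cone genes summed to 493 and 780.3 CPM, 1.55% and 2.39% of its level in cones. Their median log2 ratio was 0.65, and 6 of them were higher in Ptbp1-KO. Opn1mw (log2 2.33) and Pde6h (log2 1.09) were past 2-fold, beside 3.29% of all genes with at least 20 UMIs, with 69.6% and 63.2% of their Ptbp1-KO UMIs in 5 cells. Müller glia genes summed to 175 and 196 CPM, and the astrocyte genes Gfap, Pax2 and Aldh1l1 had no UMI. The part of these cells or of free RNA in the ratios was not tested beyond the values given.

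At the lower end, Gm47283 differed most, from 1739 CPM (755 UMIs) in Ptbp1-Ctrl to 296 CPM (286 UMIs) in Ptbp1-KO, which is −2.56 on the log2 scale (−2.76 to −2.36). It was spread over the cells, with a UMI in 96.3% and 61.3% of them, and its level was nearly the same in clusters 14 (1744 and 307 CPM) and 6 (1745 and 301 CPM), so the difference was not particular to cluster 15. Gm47283 is annotated on chrY:90784738-90816464 of mm10. Gm5820, a gene model with no match in the annotation used here, went from 85.2 to 31.0 CPM (37 and 30 UMIs, log2 −1.46).

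The other 3 genes at the lower end again had over 50% of their UMIs in 5 cells of each library. Zfp804b, a zinc finger gene that is abundant in bipolar cells (5771 and 4745 CPM), went from 739 to 251 CPM (log2 −1.56, −1.80 to −1.31), with 57.9% and 59.3% of its UMIs in 5 cells. It was found in 11.3% and 9.49% of cells, and at 1000 UMIs per cell in 9.09% and 5.62%, with intervals that overlap. Unc13c, a synaptic vesicle priming factor, went from 138 to 50.6 CPM, with 73.3% of its Ptbp1-Ctrl UMIs in 5 cells. Kcnb2, a delayed rectifier potassium channel, went from 101 to 38.2 CPM, with 88.6% of its Ptbp1-Ctrl UMIs in 5 cells. Without the 5 cells of each library that held most of its UMIs, the log2 ratio of Kcnb2 turned from −1.41 to 0.39, whereas Zfp804b (−1.65) and Unc13c (−1.02) stayed past 2-fold. With cells thinned to 1000 UMIs, Unc13c was at −0.35, and without the highest doublet scores at −2.95. Zfp804b was at −2.50 without the cells rich in bipolar UMIs.

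**Figure D5:**
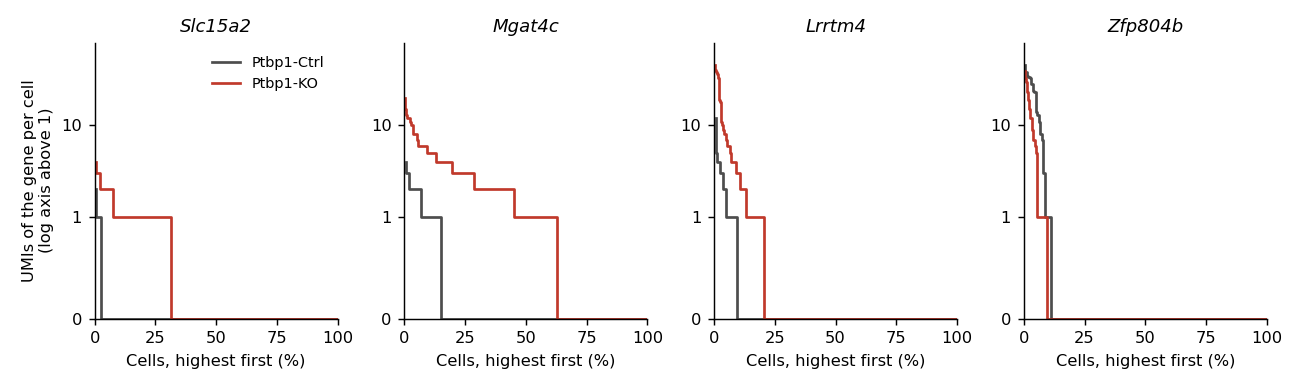
UMIs of Slc15a2, Mgat4c, Lrrtm4 and Zfp804b in each cell of cluster 15, ranked from the highest and given as a percentage of the cells of Ptbp1-Ctrl (grey) and Ptbp1-KO (red), on a log axis above 1 UMI. Slc15a2 and Mgat4c have UMIs in 31.2% and 62.8% of Ptbp1-KO cells, while Lrrtm4 and Zfp804b are concentrated in the first few percent.

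Among all 18 genes that were higher, 5 had over 50% of their Ptbp1-KO UMIs in 5 cells. All 18 remained at least 2-fold higher without the 5 cells with most UMIs of the gene. That removal says little, since 5 cells are a larger part of the 160 Ptbp1-Ctrl cells than of the 253 Ptbp1-KO cells. It also takes all Ptbp1-Ctrl UMIs of Slc15a2 and Ntng1. Without the cells rich in bipolar UMIs, 9 of the 18 remained at least 2-fold higher. Among the 18 that were lower, 5 had over 50% of their Ptbp1-Ctrl UMIs in 5 cells. Of these 18, 14 remained at least 2-fold lower without the 5 cells, and 2 turned, while 16 remained without the cells rich in bipolar UMIs. Named after their values were seen, Cox7b, a subunit of cytochrome c oxidase (735 and 282 CPM, log2 −1.38), and the ribosomal protein gene Rpl29 (228 and 101 CPM, log2 −1.17) were lower over many cells and had log2 ratios of −1.29 and −1.21 in cluster 14. Vcp, an ATPase of protein quality control (82.9 and 179 CPM, log2 1.11), was higher over many cells, with a UMI in 16.3% and 41.9% of them.

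The genes that mark the cluster differed little between genotypes. Over genes with at least 20 UMIs, of which 3.29% were at least 2-fold higher in Ptbp1-KO and 1.91% at least 2-fold lower, none of the 7 AII markers was past 2-fold, and their median log2 ratio was −0.04. Their ratios ran from −0.25 for Nfia (−0.39 to −0.12) to 0.17 for Gjd2 (−0.04 to 0.38). Dab1 had −0.05 (−0.14 to 0.03), Prox1 0.01 (−0.17 to 0.19) and Gria3 −0.04 (−0.19 to 0.11). The glycine transporters Slc6a9 (0.09, −0.09 to 0.27) and Slc6a5 (−0.08, −0.55 to 0.39) had intervals that include 0. Counting error would have allowed a change of Slc6a9 of up to 0.27 on this scale, but with cells thinned to 1000 UMIs its log2 ratio was 0.30. Among the leading genes, Syndig1 was higher in Ptbp1-KO (log2 0.64, 0.14 to 1.17), as was Tll1 (0.32, 0.13 to 0.50), while Gm49289 was lower (−1.01, −1.61 to −0.40).

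The wiring and receptor lists were centred near 0 as well. Their counts past 2-fold stand beside the same 3.29% of genes higher and 1.91% lower. The median log2 ratio was −0.04 over 7 glutamate receptor genes, with none past 2-fold, and −0.08 over 10 GABA and glycine receptor genes, with Gabrb1 lower (16 and 11 UMIs, log2 −1.70). None of 7 potassium channel genes was past 2-fold, and their median was that of Kcnma1, at −0.00093 (−0.09 to 0.09). Of 15 adhesion and wiring genes, with a median of −0.05, Ntng1 (log2 1.11) and Cdh8 (1.20) were higher and Cntn5 (−1.12) lower, with 63.5%, 89.1% and 89.0% of their Ptbp1-KO UMIs in 5 cells. Cntn4, the most abundant of the list, was at 0.01 (−0.10 to 0.13). Genes of the dissociation stress response were low, with 2 of 12 reaching 20 UMIs. Jund was at 196 and 158 CPM (log2 −0.31, −0.70 to 0.09) and Btg2 at 13.8 and 26.9 CPM (log2 0.96, −0.35 to 2.53).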

How the data were processed

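Single-cell RNA of dissociated retina was profiled with the 10x Genomics Chromium system in 1 library per genotype. The authors aligned reads to mm10 with Cell Ranger 7.0.1, filtered and clustered cells in Seurat 4 and deposited raw UMI counts for 25778 genes in 30943 cells. The deposited cell table gave the percent of mitochondrial UMIs, a cluster number, a cell type and the sample, and 2 of its columns of per-cell values were not used. Whether intronic reads were counted was not given in the sources used here.

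Here, counts were summed per cluster and library with Python 3.11.15 (numpy 2.4.6, scipy 1.17.1) and given as CPM with exact Poisson intervals. Ratios had exact conditional binomial intervals and shares of cells Clopper-Pearson intervals, all at 95%. Against other AC, counts under 3 in the denominator were set to 3. No test was run, since there was 1 mouse per genotype, and the Wilcoxon test over cells used in the study was left out for that reason. Calculations were tested on simulated data. Doublets were scored with Scrublet in scanpy 1.11.5, whose automatic threshold called 0 cells in either library and thus did not work, so all deposited cells were kept, and leaving out the 5% of each library with the highest scores was an alternative. Leaving out the bipolar-rich cells or the cells with most UMIs of a gene, and thinning Ptbp1-KO to the depth of all cells, were alternatives chosen after seeing the data.

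Named genes were Ptbp1, Ptbp2, the marker and receptor lists, the 12 genes leading the cluster against other AC, and the 5 with the largest and smallest ratios between genotypes among genes with at least 50 CPM and 50 UMIs. The members and lists were chosen with earlier results of these data known. Some genes of these lists are not reported here. Gene positions came from GENCODE vM21, on the build of the files.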

Additional observations from a re-analysis of the deposited data

Results flagged for a closer look

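Some of the genes with the largest ratios between genotypes in cluster 15 had the opposite direction in another AC cluster, with both counting intervals leaving out 0. There was 1 library per genotype and the difference between clusters was not tested. Mgat4c, at a log2 ratio of 2.59 in cluster 15, was at −0.39 in cluster 14 (−0.50 to −0.28). Lrrtm4, at 2.01, was at −0.28 in cluster 6 (−0.40 to −0.15). Pcp2, at 1.51, was at −0.61 in cluster 14 (−1.12 to −0.11). Trpm1, at 1.29, was at −0.68 in cluster 14 (−1.36 to −0.00061) and at −0.81 in cluster 6 (−1.28 to −0.34). In the other direction, Zfp804b, at −1.56 in cluster 15, was at 0.61 in cluster 14 (0.35 to 0.88). Unc13c, at −1.45, was at 0.35 in cluster 14 (0.080 to 0.63), and Kcnb2, at −1.41, was at 0.18 (0.065 to 0.30). Of these 7 genes Mgat4c was the one whose Ptbp1-KO UMIs in cluster 15 were spread over the cells, with 13.8% of them in 5 cells, against 51.3% to 63.3% for the others.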

How the results depend on the processing

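No paired analysis was possible because there was 1 library per genotype. Of 260 values recomputed under an alternative, 202 stayed, 56 moved further and 2, both of genes past 2-fold, turned. Staying means within the counting interval or, for counts, within 1.5 times. The log2 ratios of the 12 leading genes over other AC have no interval, and all were counted as staying. With thinned cells, Gm49289 among them went from 5.67 to 3.35. The share of cluster 15 in Ptbp1-KO over Ptbp1-Ctrl was 1.13 among AC and 2.36 with Ptbp1-KO thinned to the AC depth of Ptbp1-Ctrl, and was above 1 under each of the 7 alternatives. Without the highest doublet scores Slc6a9 was at 957 CPM (Ptbp1-Ctrl) and 1004 CPM (Ptbp1-KO). With cells thinned to 1000 UMIs it was at 857 CPM (Ptbp1-Ctrl) and 1052 CPM (Ptbp1-KO). Of the 12 leading genes, 2 were kept at a minimum of 200 CPM and 7 with thinned cells. The 18 genes higher and 18 lower became 3 and 3 at 200 CPM, where 910 genes were measured, and 291 and 169 with no CPM minimum, where 8846 were. Without the bipolar-rich cells 28 genes were lower. Ratios that turned were Pcp2 (−1.15) without these cells and Kcnb2 (0.39) without the 5 cells with most of its UMIs. Among values not past 2-fold, Prkca changed sign, from 0.90 to −0.34 without the bipolar-rich cells, and so did 7 values of list medians. Mgat4c ranged from 2.59 to 3.01 and Slc15a2 from 2.48 to 3.77. The 14 Ptbp1 UMIs in Ptbp1-Ctrl limit the precision of its ratio.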
